A study of Mus musculus with 6 samples.

Results

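The transcripts described here are genes listed in the deposited table under a model number (Gm followed by digits) or a RIKEN clone name (ending in Rik). A gene with several transcript rows was represented by the one with most body reads on average over the 6 libraries, and it was taken as a member by the spelling of its symbol alone. This gave 131 members, 71 with Gm names and 60 with Rik names, out of 2744 genes. The 131 members stood for 137 transcript rows of the 3022 deposited.

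The assay was PRO-seq, run on cKIT+ progenitor cells from mouse bone marrow. PRO-seq maps engaged RNA polymerase: nuclei extend their nascent RNA for 3 min with biotin-labelled nucleotides (25 µM), and the labelled RNA is sequenced. The cells came from female C57/BL6 mice carrying Mllt3 flox/flox and Rosa26Cre+, were transduced with MLLT3 WT or with MLLT3 K63E K67E (the double mutant, DM), and were sorted. MLLT3 (AF9) binds acylated histones through its YEATS domain and takes part in transcription elongation complexes. In both groups the cells grew for 8 days in methylcellulose with 200 nM 4-hydroxytamoxifen, so the deletion of endogenous Mllt3 was common to WT and DM. The medium held mFlt3L at 10 ng/mL. Interleukins (mIL-11, mIL-6, mIL-3), mGMCSF, hEPO, hTPO and mSCF were at 20 ng/mL each. Each group had 3 libraries, all in batch 1. The labels do not say that the 3 libraries of a group came from separate mice or cultures, so p-values measure the spread between these libraries, which may be technical.

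Many loci with such provisional names produce long non-coding RNAs (lncRNAs), and others are protein-coding genes that have not yet been named for a function. Mammalian promoters are often transcribed in both directions, and a lncRNA that starts back to back with a coding gene is a common arrangement. In PRO-seq the signal of a lncRNA reports polymerase on the locus and not the amount of RNA that remains in the cell. In hematopoietic progenitors some lncRNA loci lie beside lineage regulators or serve as hosts of microRNAs, whose hairpins are cut from the primary transcript.

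In the RefSeq annotation (GRCm38.p6), 91 of the 131 symbols were found, 3 of them as synonyms of newer names, and 40 were not. RefSeq classes 55 of the matched members as lncRNA and 36 as protein coding. The matched synonyms were 1810026B05Rik, now Chaserr, a lncRNA beside the chromatin remodeller gene Chd2; C530008M17Rik, now Cracd, a regulator of actin capping; and 4930452B06Rik, now Cfap20dc.

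Some members carry microRNA hairpins, whose mature sequences RefSeq gives, and these are shown first. On the same strand, 7 members enclosed 10 RefSeq hairpins. The locus 6720427I07Rik (chromosome 13, 48532906 to 48546500, minus strand) holds the hairpins of let-7a-1, let-7d and let-7f-1. The let-7 family is known for restraining proliferation and promoting differentiation. Its 3 mature 5′ arms share a seed, bases 2 to 8, which is in capitals here and in the other microRNAs listed after them (RefSeq, 5′ to 3′).

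let-7a-5p: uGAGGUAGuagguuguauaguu
let-7d-5p: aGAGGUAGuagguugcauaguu
let-7f-5p: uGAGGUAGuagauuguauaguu
miR-130b-3p, in 2610318N02Rik: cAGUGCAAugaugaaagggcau
miR-31-5p, in Gm49890: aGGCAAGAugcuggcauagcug
miR-339-5p, in 3110082I17Rik: uCCCUGUCcuccaggagcucacg
miR-1249-3p, in 5031439G07Rik: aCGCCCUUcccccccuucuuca

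The let-7 seed GAGGUAG was shared within 6720427I07Rik only, and the other 4 hosts listed carried different seeds. The table gives 2 windows per transcript. The head is 330 bp long and begins 30 bp upstream of the 5′ end, and the body is the rest of the transcript, introns included. The body of 6720427I07Rik held 1972, 1099 and 1765 reads in the WT libraries (replicates 1, 2 and 3, the order used throughout) against 1518, 1339 and 1335 in the DM libraries. On the scale of reads per 1000000 of the library total (RPM), the 2 groups did not overlap, and DM was the lower, with a log2 difference of -0.24 (SE 0.098). Gm49890, the host of miR-31, had 170, 78 and 127 body reads in WT against 93, 69 and 75 in DM, a log2 difference of -0.69 (SE 0.26). Its head fell, from 67, 95 and 95 reads to 32, 51 and 35, by 1.22 on the log2 scale (SE 0.34, edgeR adjusted p 0.0220). The groups of Gm49890 were apart in both windows. The host of miR-130b, 2610318N02Rik, was lower in DM (-0.62, SE 0.18). By contrast 5031439G07Rik, the host of miR-1249, was higher: 503, 421 and 723 body reads in WT against 1329, 1107 and 1184 in DM, a log2 difference of 1.08 (SE 0.14), with no overlap. The host of miR-339, 3110082I17Rik, differed by 0.37 (SE 0.11). The heads of 6720427I07Rik, 2610318N02Rik, 3110082I17Rik and 5031439G07Rik did not pass the threshold (edgeR adjusted p 0.495, 0.319, 0.255 and 0.492).

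A second set of sequences shows the starts of members that lie back to back with a named gene. In 11 cases a member and its nearest named gene of the table started back to back within 1 kb. The windows of 4 of them follow (RefSeq, GRCm38.p6, 250 bases before to 50 after the member's RefSeq start, on the member's minus strand). Capitals mark the bases that lie between the deposited start of the member and that of its partner. The RefSeq and deposited starts of the member differ by 0 bp for Gm11423, 11 bp for F730043M19Rik, 7 bp for A930007I19Rik and 71 bp for Gm16225. The window of Gm11423, beside Lig3 (DNA ligase III, a repair enzyme), is chr11:82780993-82781292, with 66 bases between the starts. That of F730043M19Rik, beside Atxn7l1, is chr12:33147537-33147836, with 96 bases between them. That of Gm16225, beside Runx3 (a hematopoietic transcription factor), is chr4:135120327-135120626, where 179 of the 205 bases between the starts fall in the window. That of A930007I19Rik, beside Ric1 (part of an exchange factor of the Golgi), is chr19:29521938-29522237, with 243 of 288 bases in the window.

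Gm11423 with Lig3: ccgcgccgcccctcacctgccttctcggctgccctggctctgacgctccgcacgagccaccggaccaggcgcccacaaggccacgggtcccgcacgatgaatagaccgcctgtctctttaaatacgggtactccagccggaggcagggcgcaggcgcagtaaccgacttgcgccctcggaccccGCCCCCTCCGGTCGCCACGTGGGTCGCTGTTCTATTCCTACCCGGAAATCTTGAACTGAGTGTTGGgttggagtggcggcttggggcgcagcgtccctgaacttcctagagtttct
F730043M19Rik with Atxn7l1: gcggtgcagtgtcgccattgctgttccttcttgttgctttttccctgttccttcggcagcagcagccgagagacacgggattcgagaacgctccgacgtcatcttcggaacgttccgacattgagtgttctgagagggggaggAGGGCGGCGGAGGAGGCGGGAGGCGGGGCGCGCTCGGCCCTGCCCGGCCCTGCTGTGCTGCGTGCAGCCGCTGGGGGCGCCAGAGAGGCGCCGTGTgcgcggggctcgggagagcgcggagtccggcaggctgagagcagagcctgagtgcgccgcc
Gm16225 with Runx3: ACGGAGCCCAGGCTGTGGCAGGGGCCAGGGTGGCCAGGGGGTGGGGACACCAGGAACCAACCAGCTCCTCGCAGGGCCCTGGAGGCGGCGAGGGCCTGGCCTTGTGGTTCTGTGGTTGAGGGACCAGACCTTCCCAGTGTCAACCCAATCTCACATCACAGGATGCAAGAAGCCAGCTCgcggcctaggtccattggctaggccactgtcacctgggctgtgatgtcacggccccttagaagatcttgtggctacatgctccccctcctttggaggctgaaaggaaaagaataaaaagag
A930007I19Rik with Ric1: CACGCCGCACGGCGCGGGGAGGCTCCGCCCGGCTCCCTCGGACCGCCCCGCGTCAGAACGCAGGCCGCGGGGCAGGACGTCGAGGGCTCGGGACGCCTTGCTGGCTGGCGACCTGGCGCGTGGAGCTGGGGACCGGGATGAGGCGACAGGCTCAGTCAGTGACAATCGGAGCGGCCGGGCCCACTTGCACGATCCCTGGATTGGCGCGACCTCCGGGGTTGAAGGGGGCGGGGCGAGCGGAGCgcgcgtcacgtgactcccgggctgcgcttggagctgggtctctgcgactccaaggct

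These windows differed in base composition, with 29 CpG for Gm11423, 33 for F730043M19Rik, 7 for Gm16225 and 40 for A930007I19Rik. Both strands were searched for 8 short motifs, none of which contains another. Of the printed windows, the GC box GGGCGG was in those of Gm11423, F730043M19Rik and A930007I19Rik, the E-box CACGTG in those of Gm11423 and A930007I19Rik, the CCAAT box in those of Gm16225 and A930007I19Rik, and the ETS core CCGGAA in that of Gm11423. A match is only a run of letters. For 44 members, Gm16225 not among them, the RefSeq start lay within 50 bp of the deposited one. GGGCGG was present in 52.3% of their windows, in 73.1% of the windows of 1475 other genes of the table and in 35.7% of all 32851 RefSeq windows. The TATA box TATAAA was found in 2.27% of the members' windows, 6.37% of the other genes' and 13.6% of all. CCAAT was in 31.8%, 37.3% and 37.4%, and CACGTG in 11.4%, 11.4% and 7.15%. The AP-1 motif TGACTCA was in 11.4% of the members' windows, 4.00% of the other genes' and 5.20% of all. The GATA motif AGATAA was in 4.55%, 5.63% and 11.2%, CCGGAA in 20.5%, 23.2% and 14.9%, and the STAT motif TTCNNNGAA in 6.82%, 5.49% and 8.30%. The median window held 18.5 CpG in the members, 22.0 in the other genes and 7.00 over all RefSeq windows.

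Every row of the table had an adjusted p under 0.05 in the authors' deposited table for the body comparison of DM with WT, so body differences of members are a description and carry no test here. Library totals ran from 15112853 (WT replicate 2) to 22981603 reads (WT replicate 1). Of the fixed marker lists, 5 of 6 stem and progenitor genes were in the table and all 5 were lower in DM, with a summed body signal of 2513 to 3241 RPM in WT and 1527 to 1584 in DM. The 5 myeloid markers of 10 that were in the table (4 higher, 1 lower) summed to 198 to 252 RPM in WT and 512 to 601 in DM. Of 5 mast and basophil markers 3 were in the table, all lower (1188 to 2204 RPM in WT, 943 to 1018 in DM), and of 7 erythroid and megakaryocyte markers 4, all lower (197 to 223 and 107 to 125). None of 6 lymphoid markers was in the table. These marker signals moved with the groups, and their part in the members' differences was not tested. In bulk libraries fewer cells of a type and less engaged polymerase per cell cannot be told apart.

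The members were short beside the other genes of the table, and as a whole set they had lower median read counts and signal per length. Their median length was 12865 bp, with quartiles of 6435.5 and 30503.5 bp, and the other 2613 genes had a median of 35117 bp. The shortest member was Gm10645 at 1089 bp, followed by Gm9993 at 1095 bp and 2210406H18Rik at 1107 bp. The longest was Gm37240 at 1391092 bp, followed by Gm45062 at 338030 bp and Gm13986 at 253911 bp. Among the members 24 were shorter than 5 kb and 12 reached 100 kb, against 150 and 533 of the other genes. The median member had a mean of 226 reads in the body and 46.8 in the head per library, and the median of the other genes was 765 and 123. Per length, the body signal had a median of 0.661 reads per kb per 1000000 reads (RPKM) in the members and 1.02 in the other genes.

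**Figure D1:**
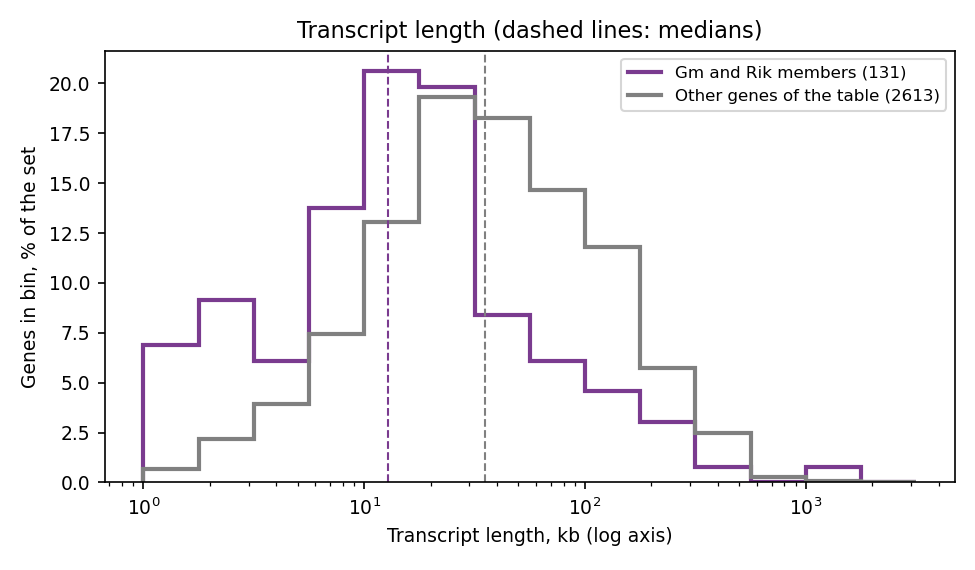
Transcript length in kb (log axis) against the percentage of genes in each bin, for the 131 members (purple) and the 2613 other genes (grey), with dashed lines at the medians. The members' curve lies to the left, with its median at 12865 bp against 35117 bp.

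The Rik members were longer (median 14998 bp) than the Gm members (11711 bp). Body signal per length was 0.637 RPKM at the median for Rik and 1.24 for Gm, so the Gm median was above the 1.02 of the other genes. By RefSeq class, protein-coding members were the longest (median 24257 bp), lncRNA members had a median of 12105 bp, and the 40 members with no RefSeq match 8510.5 bp. The unmatched members had the highest median body signal per length (1.54 RPKM, also above the other genes), the lncRNA members 0.637 and the protein-coding members 0.424. Of the unmatched members 47.5% overlapped a named gene of the table, and of the lncRNA members 18.2%.

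Per length, the highest body signal was that of Gm9993 (chromosome 18, minus strand), with 24.0 ± 1.23 RPKM in WT and 15.3 ± 1.46 in DM (mean ± SD, n = 3 libraries each). Its body held 424, 305 and 424 reads in WT against 265, 272 and 226 in DM, and the groups were apart in RPM. Gm45713, which covers most of Flt3l, the gene of the Flt3 ligand, had 17.5 ± 1.84 RPKM in WT and 12.5 ± 0.896 in DM (mean ± SD, n = 3 libraries each). Gm20443 followed at 17.4 ± 7.35 and 10.2 ± 0.782, and here the groups overlapped. Its spread came from WT, where the body held 1012, 272 and 701 reads. The lncRNA Gm36486 was the only one of these 4 that was higher in DM, with 8.34 ± 1.44 RPKM in WT and 16.3 ± 1.99 in DM (mean ± SD, n = 3 libraries each).

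Most members were annotated on the minus strand. Of the 131 members 111 (84.7%) were on the minus strand and 20 on the plus strand. Among the lncRNA members this was 54 of 55, among the unmatched members 33 of 40, and among the protein-coding members 24 of 36. The other 2613 genes of the table were 51.8% minus. Of 10442 Gm and Rik genes with a RefSeq promoter window, 49.4% were on the minus strand. RefSeq gave a strand for 75 members, and it was the deposited strand in all 75. Of 10 named lncRNA genes in the table outside the members, 9 were also on the minus strand. The cause was not tested.

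**Figure D2:**
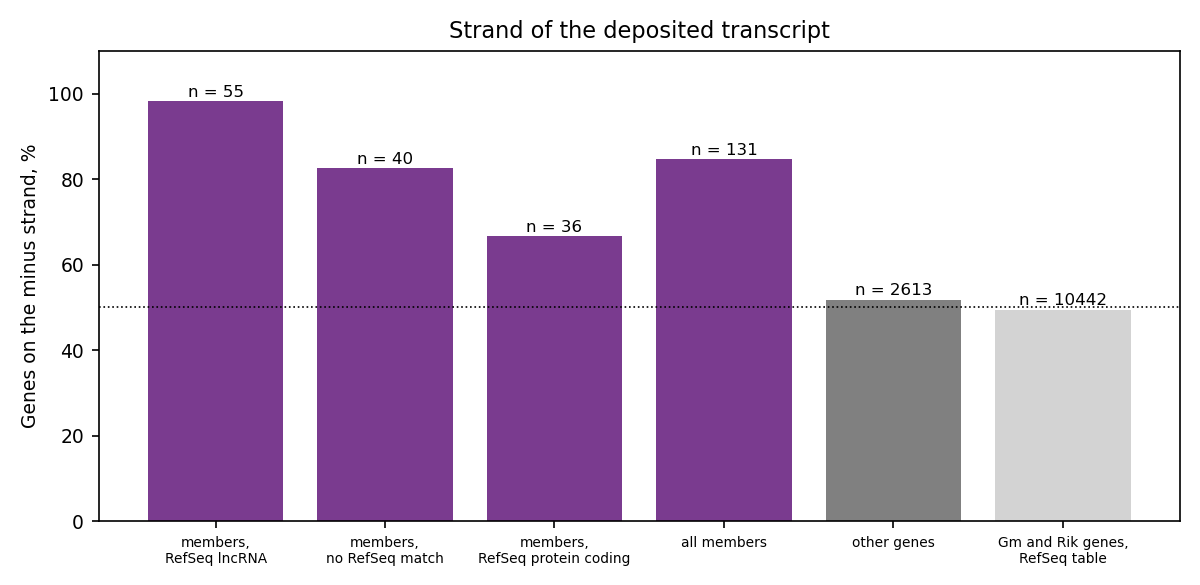
Percentage of genes on the minus strand, with the number of genes above each bar: members by RefSeq class and all members (purple), the other genes of the table (dark grey) and Gm and Rik genes of the RefSeq promoter table (light grey). The dotted line is at 50%; 54 of the 55 lncRNA members lie on the minus strand.

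By the fold changes of the authors' deposited table, body counts were higher in DM for 76 of the 131 members and lower for 55. That is 58.0% higher and 42.0% lower, beside 57.0% and 43.0% of all 2744 genes. The members' direction was thus close to the background. With library totals as the scale, the median body log2 difference was 0.56 in the members and 0.40 over all genes, and the median size without sign was 0.93 in the members and 0.67 in the other genes. Of 129 members with enough reads for edgeR's model, 128 passed an adjusted p of 0.05 (76 higher, 52 lower), beside 99.5% of all genes tested (57.4% higher, 42.1% lower). That count follows from how the rows were selected. With TMM scaling the split of called members was 58 higher and 53 lower (41.9% of all genes were then called higher), and the median of all genes shifted by -0.21 on the log2 scale. In RPM 124 members had groups that did not overlap, 76 higher and 48 lower, beside 95.0% of all genes (56.9% higher, 38.2% lower). Summed over the members, the bodies took 0.353% ± 0.0162 of the WT libraries and 0.415% ± 0.0114 of the DM libraries (SD, n = 3 each). Over all genes of the table the share was also higher in DM, at 17.12% ± 1.249 in WT and 19.45% ± 0.484 in DM. A higher summed share in DM was thus not particular to the members.

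The members with the largest body differences, among those with a mean of at least 50 body reads and groups apart, lay in several kinds of neighbourhood. Gm43181, 1896 bp upstream of Fbxl5 (an iron-sensing ubiquitin ligase subunit), had 161, 67 and 180 body reads in WT against 686, 487 and 611 in DM. Every DM library was above every WT library in RPM, and the log2 difference was 2.12 (SE 0.21). Gm10645, whose start overlaps that of Tbc1d9 on the other strand, had 47, 34 and 52 body reads in WT against 150, 111 and 151 in DM (1.58, SE 0.26). A530076I17Rik, a lncRNA 2627 bp upstream of the phospholipase gene Ddhd1, had 30, 27 and 44 in WT against 113, 101 and 89 in DM (1.52, SE 0.29). These 3 members and their neighbours were all higher in DM, Fbxl5 by 1.19, Tbc1d9 by 1.53 and Ddhd1 by 1.03 on the log2 scale.

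Gm17173, 293286 bp from the nearest named gene of the table, had 158, 128 and 155 body reads in WT against 514, 350 and 429 in DM, a log2 difference of 1.48 (SE 0.16). Gm13986, a lncRNA that runs away from the start of Thbs1 (thrombospondin 1, a secreted matrix glycoprotein), had 237, 144 and 248 in WT against 640, 514 and 622 in DM (1.46, SE 0.13). Gm6209, a lncRNA upstream of Slc7a11 (the cystine-glutamate exchanger), had 528, 285 and 736 in WT against 1574, 1491 and 1220 in DM (1.45, SE 0.18). In all 3 of these members no DM library reached down to a WT library.

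The largest differences in the other direction were led by 2310002F09Rik, a lncRNA of 102749 bp near Siglece, a sialic acid receptor of myeloid cells. It had 179, 44 and 76 body reads in WT against 15, 21 and 19 in DM, a log2 difference of -2.41 (SE 0.46). Most WT reads came from replicate 1, and without it the difference was -1.83. The lncRNA Gm26885 had 740, 217 and 347 in WT against 135, 108 and 106 in DM (-1.90, SE 0.31), and -1.42 without WT replicate 1. A930104D05Rik, 941 bp from the end of the orphan receptor gene Gpr176 on the same strand, had 146, 70 and 166 in WT against 40, 29 and 39 in DM (-1.83, SE 0.30). All DM libraries of these 3 members were below all WT libraries in RPM.

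C530008M17Rik, the actin regulator now named Cracd, had 2260, 1386 and 2245 body reads in WT against 818, 772 and 729 in DM, a log2 difference of -1.38 (SE 0.093). Its start overlaps, by 672 bp on the opposite strand, that of another member, A730089K16Rik, which had 56, 133 and 146 in WT against 37, 34 and 45 in DM (-1.66, SE 0.46). WT replicate 1 was the lowest WT library of A730089K16Rik and lay close above the highest DM library, whereas the WT libraries of C530008M17Rik were close together. Gm38708, a lncRNA of 2284 bp, starts 3210 bp from Gata2, a transcription factor of stem and progenitor cells, in the opposite direction. It had 346, 229 and 343 body reads in WT against 127, 100 and 149 in DM (-1.33, SE 0.19). Gata2 itself had 34526, 17842 and 28698 in WT against 17398, 14525 and 13958 in DM (-0.85, SE 0.11). The groups were apart for both genes.

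**Figure D3:**
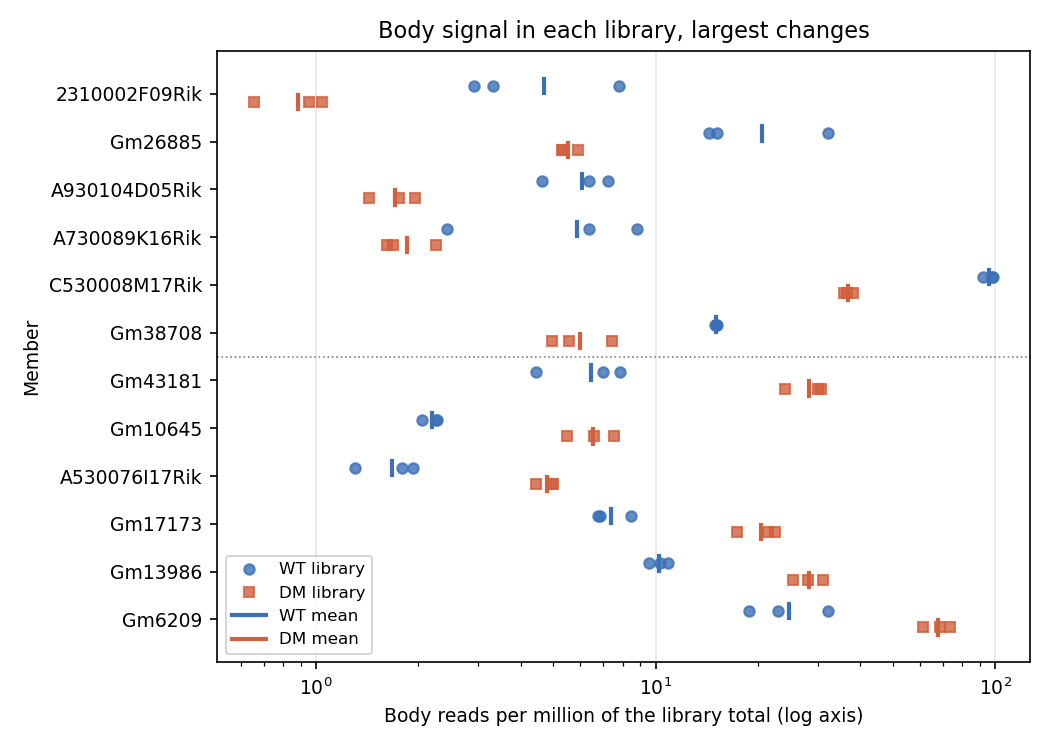
Body reads per 1000000 of the library total (log axis) for the 6 members with the largest log2 difference in each direction, with one point per library (WT blue circles, DM orange squares) and bars at the group means. WT and DM points do not overlap for any of the 12 members, and WT replicate 1 stands out to the right for 2310002F09Rik and Gm26885.

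In 8 members the body RPM of WT replicate 1 was over 2 times that of any other library, and all 8 were lower in DM by the authors' deposited table. A choice by a high WT library favours that direction, so the direction is no separate result. Such an excess of WT replicate 1, in either direction of DM, was found for 118 of the other 2613 genes. The 8 were 1700019D03Rik, 1700030C10Rik, 2310002F09Rik, 2700081O15Rik, Gm16127, Gm19426, Gm26885 and Gm38393. In 1700019D03Rik the body held 221, 16 and 10 reads in WT against 11, 13 and 8 in DM, and the groups overlapped. Its log2 difference was -2.86 with all libraries and -0.47 without WT replicate 1. For 2700081O15Rik, with 506, 73 and 48 in WT against 77, 53 and 50 in DM, it was -1.77 and -0.24. For 1700030C10Rik it went from -2.57 to -0.58, and for Gm38393, which overlaps the imprinted gene Snrpn, from -2.55 to -1.11. Gm16127 (32, 2 and 1 in WT against 0, 0 and 1 in DM) and Gm19426 (152, 18 and 6 in WT against 9, 8 and 2 in DM) had too few reads for the body model.

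Head windows were counted separately from the bodies that chose the rows, though on the same transcripts and in the same libraries. Of the 131 members 119 had enough head reads for edgeR's model, and 44 of these passed an adjusted p of 0.05, 26 higher and 18 lower in DM. That is 37.0% of those tested, beside 20.3% of all 2579 genes tested (9.62% higher and 10.7% lower). All 44 head differences had the direction of the body. The median head log2 difference was -0.03 in the members and -0.11 in the other genes. Head groups that did not overlap in RPM were found for 39 members higher in DM and 27 lower, beside 17.7% and 23.3% of all genes. The count of 44 depended on single libraries: it was 0 without DM replicate 1 (14 of all genes), 17 without DM replicate 2 (207), 12 without DM replicate 3 (110), 29 without WT replicate 3 (311), 51 without WT replicate 1 (850) and 61 without WT replicate 2 (942). An unadjusted p under 0.05 was found for 59 member heads, 49.6% of those tested beside 37.2% of all genes. Without DM replicate 1 it was found for 49, which is 39.5% beside 25.1%. By RefSeq class 14 of 48 tested lncRNA members passed, 8 of 34 protein-coding members and 22 of 37 unmatched members.

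The heads that rose were led by Gm10645, which had 21, 17 and 23 head reads in WT against 79, 49 and 82 in DM, a log2 difference of 1.72 (SE 0.32, edgeR adjusted p 0.00649). Gm6209 rose from 21, 22 and 35 to 91, 61 and 80 (1.50, SE 0.31, adjusted p 0.00810). Gm37199, 17124 bp beyond Gm6209 and on the same strand, rose from 29, 16 and 40 to 82, 92 and 66 (1.47, SE 0.31, adjusted p 0.00810). In these 3 every DM library had more head RPM than every WT library. Slc7a11, the nearest named gene of both Gm6209 and Gm37199, had a body log2 difference of 1.56 (SE 0.14), close to the 1.45 and 1.33 of the members. Gm49368, which shares most of its length with Itgam, rose from 77, 49 and 90 to 202, 154 and 150 (1.18, SE 0.25, adjusted p 0.00847). Itgam starts close by on the same strand, so reads can enter the head windows of both genes. Gm43181 rose from 82, 86 and 66 to 197, 198 and 235 (1.33, SE 0.30, adjusted p 0.00982). These 2 members also had groups that did not overlap.

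The heads that fell were led by the lncRNA Gm6093, which had 143, 101 and 129 head reads in WT against 54, 47 and 53 in DM (-1.33, SE 0.26, edgeR adjusted p 0.00649). C530008M17Rik fell from 156, 193 and 255 to 74, 86 and 80 (-1.41, SE 0.29, adjusted p 0.00810). Gm38708, beside Gata2, fell from 74, 89 and 147 to 46, 28 and 41 (-1.50, SE 0.32, adjusted p 0.00871). WT and DM were apart in all 3. A230098N10Rik, a lncRNA that starts 5353 bp from the cytokine gene Il6 in the opposite direction, fell from 45, 46 and 90 to 23, 18 and 19 (-1.64, SE 0.34, adjusted p 0.00810). Gm15657 fell from 90, 23 and 53 to 15, 18 and 9 (-1.97, SE 0.41, adjusted p 0.00810). The body of Gm15657 was lower by less, at -1.01. Without DM replicate 1 none of these 10 heads passed the threshold (edgeR adjusted p from 0.0564 to 0.0670), and each kept its sign.

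**Figure D4:**
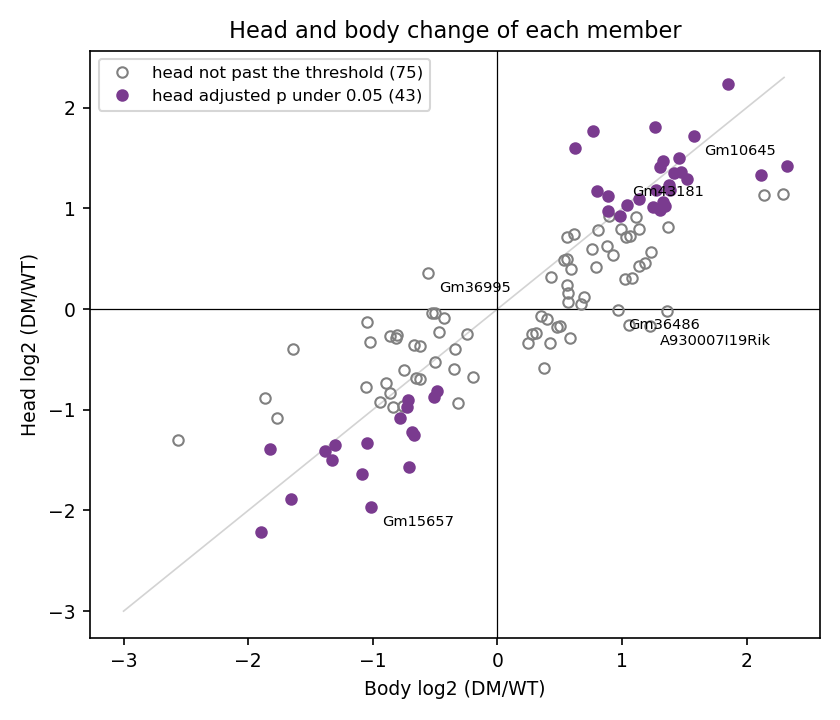
Body against head log2 difference (DM over WT) of the 118 members tested in both windows, filled where the head passed an edgeR adjusted p of 0.05; the grey line marks equal values. Filled points lie in the upper right and lower left, and A930007I19Rik and Gm36486 lie to the right of the line near a head difference of 0. A further head call, Gm19426, had no body fit and is not drawn.

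Head and body differences had the same sign in 103 of the 118 members tested in both, with a Pearson r of 0.87 across these genes (0.84 across 2459 other genes). The windows share libraries and transcripts, and genes are not independent replicates. Where the signs differed, the body was higher and the head lower in 14 members and the reverse in 1. That member was Gm36995, whose head of 15, 7 and 25 reads in WT against 21, 21 and 19 in DM did not pass the threshold (log2 0.36, edgeR adjusted p 0.559). The fitted change of head relative to body was below 0 in 81 of 118 members and in 1804 of 2459 other genes. Both counts include WT replicate 2, the library with the most head reads per body read. Per 100 summed body reads, the other genes had 13.3, 23.7 and 14.9 head reads in WT and 12.7, 14.5 and 13.7 in DM. The members' values are given with the ratio below. How far the lean in each set rests on that library was not tested. Signs near 0 also depend on the scale, since TMM turned the sign of 5 member heads.

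The head to body ratio, a common measure of polymerase pausing, was tested by the interaction of window and group. None of 118 members passed an adjusted p of 0.05 with edgeR, beside 0.0776% of 2577 genes (all of them lower), and 19 members (7 higher, 12 lower) had an unadjusted p under 0.05, which is 16.1% beside 15.3% of all genes and so near the background. DESeq2 called 2. The lowest adjusted p was that of A930007I19Rik, the lncRNA back to back with Ric1. Its body held 1940, 1522 and 2607 reads in WT against 5589, 4023 and 5057 in DM, while its head held 59, 67 and 56 in WT against 67, 48 and 60 in DM. The body groups were apart and the head groups overlapped. The ratio differed by -1.36 on the log2 scale (SE 0.31, edgeR adjusted p 0.139). With DESeq2 it was -1.36 (adjusted p 0.0092), and without WT replicate 2 it was -1.10 (edgeR adjusted p 0.0266). Ric1, on the other strand, differed in the same way, with a body log2 difference of 0.87 and a head difference of -0.32. Gm36486 had the second lowest value: 940, 762 and 1327 body reads in WT against 2398, 1690 and 2064 in DM, with 313, 265 and 326 in WT against 346, 293 and 309 in DM in the head. Its ratio differed by -0.97 (SE 0.26, edgeR adjusted p 0.183), by -0.97 with DESeq2 (adjusted p 0.0232) and by -0.88 without WT replicate 2 (edgeR adjusted p 0.0266). Without WT replicate 2, 3 members passed, these 2 and Gm45062 (0.76, edgeR adjusted p 0.0373). That is 2.44% of the members tested, beside 3.14% of all genes. Without WT replicate 1, only 6430548M08Rik passed (-1.58, edgeR adjusted p 0.0418), which is 0.826% beside 0.691% of all genes. The shares of members called by these alternatives were thus near the background. Over all members, 100 body reads came with 18.5, 26.0 and 18.2 head reads in WT replicates 1 to 3 and with 14.8, 17.2 and 15.9 in DM. WT replicate 2 was the highest of the 6.

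The nearest named gene of the table lay closer to members than to other genes. Named genes absent from the table were not considered, so a closer or overlapping gene may exist for any of them. The median gap was 27212 bp for the members and 105271 bp for the other genes, and 24.4% of the members but 3.41% of the other genes overlapped a named gene. By the authors' deposited table, 95 of the 131 members (72.5%) had the same body direction as their nearest named gene, 58 both higher and 37 both lower, beside 61.5% of the other genes. Where a gap of at most 10 kb separated them, 24 of 25 members shared the direction (81.2% of 329 other genes). Over 10 and up to 100 kb it was 24 of 32 (64.7% of 860), over 100 and up to 500 kb 12 of 24 (53.4% of 874) and beyond that 7 of 18 (52.3% of 461). The exception within 10 kb was 4933430I17Rik, with 37, 15 and 32 body reads in WT against 74, 60 and 53 in DM, beside Alad, a gene of heme synthesis, which had 227, 181 and 265 in WT against 127, 132 and 132 in DM. The groups of both genes were apart, in opposite directions. Differences in sharing between distance classes were not tested, since genes are not replicates and the choice of rows fixed that all had changed.

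**Figure D5:**
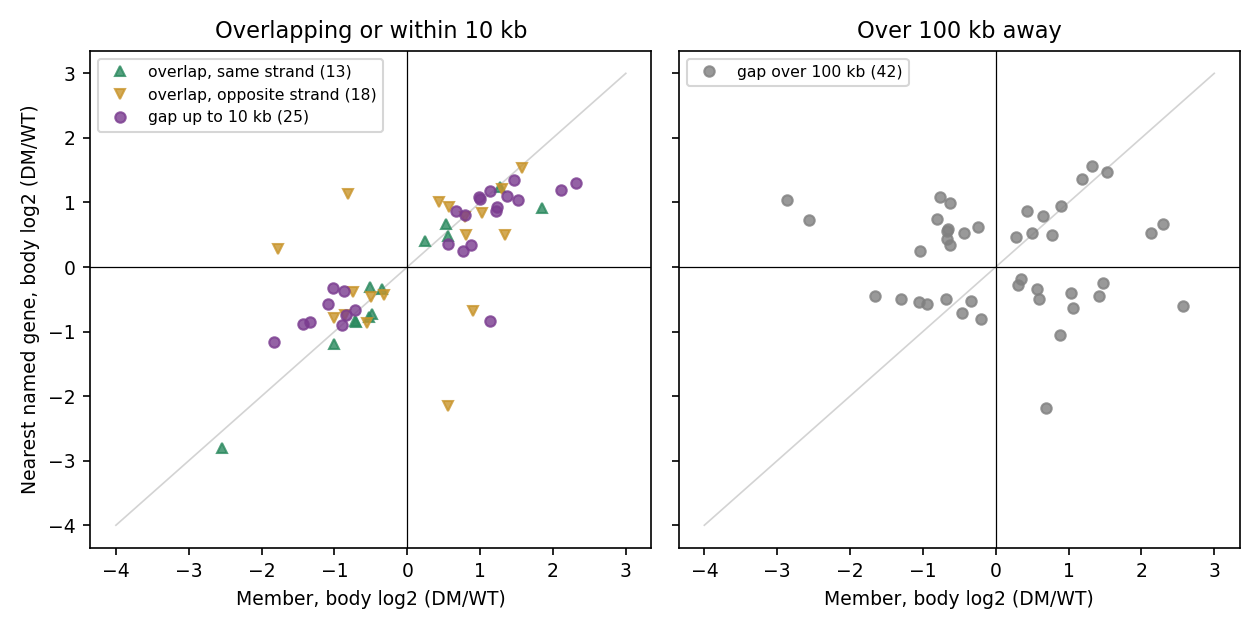
Body log2 difference (DM over WT) of each member against that of its nearest named gene, on the left for overlapping pairs (same strand, green; opposite strand, ochre) and pairs with a gap of up to 10 kb (purple), on the right for pairs over 100 kb apart (grey). Most near pairs lie in the upper right or lower left, with 4 opposite-strand overlaps and 1 pair within 10 kb in the other quadrants, and distant pairs lie in all 4 quadrants. A member without a body fit, Gm16127, is not drawn.

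Of the members that share no base with their neighbour, 11 started back to back with it within 1 kb. All 11 had the direction of that gene, 5 higher and 6 lower, and the Pearson r of the log2 fold changes in the authors' deposited table was 0.95 across the 11 pairs. Among other genes it was 29 of 35 pairs, with an r of 0.68. For Gm11423, whose start beside Lig3 is printed above, the body held 230, 172 and 315 reads in WT against 129, 151 and 124 in DM (-0.86, SE 0.20). Lig3 had 898, 622 and 971 in WT against 650, 702 and 639 in DM (-0.37, SE 0.11). In both genes every DM library was below every WT library. F730043M19Rik had 100, 59 and 95 in WT against 182, 135 and 128 in DM (0.76, SE 0.22), and its partner Atxn7l1 3994, 2696 and 4257 in WT against 4902, 4318 and 4199 in DM (0.25, SE 0.087). Gm16225 had 324, 255 and 420 in WT against 218, 209 and 199 in DM (-0.72, SE 0.15), with Runx3 at 9089, 5710 and 10226 in WT against 5839, 5128 and 5124 in DM (-0.67, SE 0.099). In each of these pairs the 2 genes lay on the same side, though the sizes of the difference were closer for Gm16225 and Runx3 than for F730043M19Rik and Atxn7l1.

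The member head windows of these pairs did not all follow. The head of Gm16225 fell, from 126, 38 and 139 to 53, 50 and 49 reads (-0.97, edgeR adjusted p 0.0458), and that of Gm11423, at 194, 119 and 248 in WT against 151, 160 and 162 in DM, did not pass (adjusted p 0.485). For the head of Gm16225, WT replicate 2 lay only just above the DM libraries in RPM, and the adjusted p was close to the threshold. Gm13986 and Thbs1 were the pair with the largest difference among the 6 most deeply counted. Thbs1 had 1755, 957 and 1387 body reads in WT against 4183, 2965 and 3606 in DM (1.35, SE 0.13), close to the 1.46 of Gm13986. Per length the 2 were far apart, at 0.0403 RPKM for Gm13986 and 4.46 for Thbs1 in WT. The lncRNA 4933406I18Rik had 712, 315 and 831 body reads in WT against 400, 320 and 321 in DM (-0.84, SE 0.19). Its partner Pde3b, a cyclic nucleotide phosphodiesterase, differed by -0.75 (SE 0.16). Ric1 had 865, 505 and 800 in WT against 1488, 1281 and 1305 in DM (0.87, SE 0.093) beside the 1.22 of A930007I19Rik. Here the lncRNA held more body reads than the coding gene in every library.

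On the same strand 13 members overlapped a named gene, and all 13 had its direction, with an r of 0.96 across the pairs on the same values. Among other genes 15 of 15 such overlaps shared the direction (r 0.95), so this was not particular to the members. Reads in the shared stretch can enter both counts, and how the authors assigned them is not given in the sources used here, so these pairs are not independent. Gm49368 starts 43 bp from Itgam, the gene of the integrin CD11b of myeloid cells, and shares 55808 bp with it. It had 1929, 1289 and 2059 body reads in WT against 4950, 4061 and 4196 in DM, where Itgam had 1700, 1172 and 1827 in WT against 4305, 3557 and 3662 in DM. The differences were 1.28 and 1.24, both with groups apart. Gm45713 shares 6443 bp with Flt3l but held far more body reads, 3674, 2957 and 3891 in WT against 2643, 2698 and 2533 in DM. Flt3l had 546, 447 and 820 in WT against 407, 330 and 394 in DM. Its difference was -0.48 (SE 0.11) and that of Flt3l -0.73 (SE 0.16). Gm45062 had -0.53 beside -0.77 of Glcci1, Gm49909 0.25 beside 0.40 of the myosin light chain gene Myl12b, Gm45928 0.56 beside 0.49 of the polymerase delta subunit gene Pold4, and 6530402F18Rik -0.51 beside -0.30 of Ntng2. Gm50241 lies wholly inside Chtf8 and differed by -0.35, as Chtf8 did.

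On the opposite strand 19 members overlapped a named gene, and 15 had its direction (r 0.68 across the 19 pairs by the authors' deposited table). Among other genes with such an overlap it was 62 of 74 (r 0.62). The longest member, Gm37240, had 3895, 2983 and 5024 body reads in WT against 5938, 5070 and 5589 in DM (0.43, SE 0.12) and overlaps Tmem154 by 38383 bp, which differed by 1.01. Gm36995 spans Foxp3, the regulator of regulatory T cells, on the other strand. It had 3301, 2265 and 4081 in WT against 2433, 2193 and 2121 in DM (-0.56, SE 0.11), where Foxp3 had 238, 117 and 208 in WT against 123, 93 and 100 in DM (-0.86, SE 0.21). Both were lower with groups apart, and per length the member had 3.38 RPKM and Foxp3 0.425 in WT. Gm15657 was lower (-1.01) as was Heg1 (-0.79), 1700086O06Rik (-0.50) as was the mitochondrial stress gene Dele1 (-0.47), and Gm26740 was higher (0.57) as was Raet1e (0.93).

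The 4 opposite-strand pairs that differed in direction were 4930404N11Rik with Mfsd12, 5430405H02Rik with Tgif2, 4933439K11Rik with Cfap45 and 2700081O15Rik with Rtn3. In the authors' deposited table both genes of each pair had passed the body comparison. As given above, most WT reads of 2700081O15Rik came from replicate 1, and its difference was far smaller without that library. Its groups overlapped in RPM. 4930404N11Rik lies wholly inside Mfsd12, a transporter gene of lysosomes and melanosomes. It had 739, 603 and 870 body reads in WT against 480, 432 and 408 in DM (-0.81, SE 0.11), where Mfsd12 had 811, 723 and 1165 in WT against 2206, 1991 and 1969 in DM (1.13, SE 0.14). The groups of both were apart, in opposite directions. 5430405H02Rik had 277, 209 and 322 in WT against 435, 369 and 428 in DM (0.56, SE 0.13), while the homeobox gene Tgif2 had 179, 49 and 25 in WT against 16, 25 and 16 in DM, with most reads in WT replicate 1 and overlapping groups. 4933439K11Rik had 139, 160 and 240 in WT against 367, 328 and 362 in DM (0.90) beside 1056, 523 and 847 in WT against 572, 466 and 499 in DM of Cfap45 (-0.69), and these groups were apart.

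For 7 members that lie wholly inside a named gene on the opposite strand, body signal per length was compared with that of the host. Over all 6 libraries it ranged from 0.252 times the host's for C030005K06Rik in Tnfaip8 to 12.2 times for Gm16096 in Clmp. Gm16096 had 3.63 RPKM in WT and 8.97 in DM against 0.314 and 0.722 for Clmp, an adhesion molecule gene. 2210406H18Rik, one of the shortest members, had 73, 48 and 83 body reads in WT against 190, 170 and 174 in DM (1.35, SE 0.21). Its host Mettl9, a histidine methyltransferase gene, differed by 0.50 (SE 0.11), and the member's signal per length was 5.68 times the host's. The head of 2210406H18Rik rose as well, by 1.03 (edgeR adjusted p 0.0207).

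Members also lay close to each other. There were 7 pairs of members within 100 kb, and in 6 of them both had the same direction. The exception was Gm36486 with Gm26885, 2 lncRNAs on the minus strand of chromosome 17 with 9853 bp between them. Gm36486 was higher in DM by 0.97 (SE 0.15) and Gm26885 lower, at -1.90 (SE 0.31; -1.42 without WT replicate 1). The groups were apart for both. The head of Gm26885 fell, from 18, 24 and 35 to 3, 3 and 11 reads (log2 -2.22, SE 0.54, edgeR adjusted p 0.0141), and that of Gm36486 did not pass (log2 -0.01, adjusted p 0.984). Among the pairs that agreed were 4930553M12Rik and the miR-31 host Gm49890, whose nearest named gene was Mllt3 at 833869 and 876491 bp. 4930553M12Rik had 37, 22 and 36 body reads in WT against 11, 14 and 14 in DM (-1.31, SE 0.36), with groups apart, and Mllt3 itself, floxed in both groups, differed by -0.49.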

How the data were processed

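PRO-seq was measured in 6 libraries, 3 MLLT3 WT and 3 K63E K67E (DM). Library totals of 15112853 to 22981603 reads set the counting precision. Per the file headers, the deposited table gives raw read counts of the head and body of each transcript, and RPKM values made from them by the authors with each library's total; recomputed RPKM were equal to the deposited ones to within 9.1e-15 of the value. It also gives the authors' log2 fold changes and adjusted p-values for the body, and every row has an adjusted p-value of at most 0.0498. The deposited signal tracks were not used here. The submitters' processing notes name Bowtie 1.1.2, bedtools 2.28, cutadapt, Trimmomatic and MACS2, with builds mm10 and dm3. Annotation, strand use and the handling of reads with several matches are not given in the sources used here.

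Counts were fitted with edgeR 4.0.16 (quasi-likelihood test, R 4.3.3) over all 2744 genes, without TMM because only changed rows are present: library totals were the scale. Genes passed filterByExpr (minimum count 10, minimum total 15); Benjamini-Hochberg adjustment ran over all genes fitted. The head to body ratio was the interaction of window and group with library as a block. No other covariate entered. limma 3.58.1 and DESeq2 1.42.0 were alternatives, with TMM, the authors' size factors, other filters, the longest transcript, a replicate block and each library left out. On simulated data with 2-fold changes, 170 of 199 changed genes were recovered for the body (7 false calls), 91 of 188 for the head (4 false) and 61 of 189 for the ratio (3 false). The simulation changed 200 genes drawn from the whole table, whereas every real row was selected as changed. These rates therefore need not hold for the members, which have fewer reads.

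The members, the marker lists and the rules were chosen with earlier results of these data known. Members were named by rule: the 6 largest body differences each way among those with a mean of at least 50 body counts and groups apart, the 4 highest body RPKM, the 3 longest and 3 shortest, up to 5 heads each way by adjusted p, up to 6 ratio calls, and up to 6 by body count in each neighbour arrangement. MicroRNA hosts were named for their hairpins. Members led by WT replicate 1, exceptions in direction, the ends of the host comparison and close member pairs were named after their values were seen. Replicate numbers were shared by WT and DM, and the labels do not say whether they pair the libraries. Deviations of same-numbered libraries correlated at -0.065, -0.190 and 0.425 in the body and at 0.050, -0.018 and 0.060 in the head. These values cannot decide it, and the main fits treat the libraries as unpaired.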

Additional observations from a re-analysis of the deposited data

How the results depend on the processing

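The 131 members are rows already selected for a changed body, so the body counts say little about stability. At an adjusted p of 0.01, 84 members passed for the body (29 lower; 65.1%, beside 65.0% of all genes) and 10 for the head (5 higher, 5 lower; of 119 tested, beside 4.46% of all genes). In a refit of genes with a mean of at least 50 head counts, 16 of 63 members passed (9 higher, 7 lower), beside 16.1% of all genes. Of members sharing no base with another gene of the table, 59 were higher and 34 lower in the body of 94 tested, and 20 and 11 in the head of 86, beside 99.5% and 20.0% called of all such genes. DESeq2 called 2 ratios, 2 of them lower, beside 1.44% of all genes. Leaving out 1 library gave 90 to 124 body calls (58 to 76 higher, 32 to 52 lower), 0 to 61 head calls (0 to 39 higher, 0 to 27 lower) and 0 to 3 ratio calls (0 to 1 higher, 0 to 2 lower). These fits hold fewer samples, and why DM replicate 1 matters most was not tested. TMM moved the median of all genes by -0.21 in the body and 0.09 in the head, called 59 heads (34 higher, 25 lower; 984 of all genes, where the library totals called 524), turned the sign of 0 member bodies and of 5 heads, and the authors' size factors called 41 (436). With the replicate block, 123 bodies (75 higher, 48 lower) and 56 heads (30 higher, 26 lower, beside 796 of all genes) passed, and 0 ratios by limma. Whether the replicate numbers pair the libraries is not known. Of the values of single named members, 457 body values stayed on their side of the threshold and 11 fell below it; for the head 362 stayed, 44 fell below and 15 rose past it; for the ratio 350 stayed and 5 rose past it. None changed sign while called. 12 members had too few head reads for a test.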

Other observations

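Loci with other provisional or non-coding names were also in the table: 20 genes by a spelling rule for accession-like symbols, antisense names ending in "os", small nucleolar RNA hosts and a few known lncRNAs. The ending also caught Mocos, Nos2 and Sos1, which are named protein-coding genes. RefSeq classes the accession-like AA467197, AB124611, AI467606, BC005537, BC049715, BC049762 and C87436 as protein coding too. In the body 11 of the 20 were higher in DM and 9 lower, beside 57.0% higher of all genes by the authors' deposited table. Of 19 tested in the head, beside 20.3% of all genes called (9.62% higher, 10.7% lower), 5 rose and 0 fell by edgeR's adjusted p: AA467197 (log2 0.89), AB124611 (0.97), AI839979 (1.05), Mirt1 (1.15) and Nos2 (1.27), the inducible nitric oxide synthase gene of activated myeloid cells. The small nucleolar RNA hosts Snhg4, Snhg10 and Snhg15 had lower body signal in DM, at -0.54, -0.48 and -0.40 on the log2 scale, and Emx2os was at -1.51. On the minus strand lay 11 of the 20.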
